A study of Mus musculus with 24 samples.

Results

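The genes described here are 44 of the 54658 gene symbols in the count tables, chosen by symbol as genes of mitochondrial fatty acid β-oxidation (18 genes), of the TCA cycle (18 genes) and of the group under the control of peroxisome proliferator-activated receptors (PPAR) and their coactivators (8 genes). All 44 were found in both tables. Their level and their change with β-nicotinamide mononucleotide (β-NMN), a precursor of NAD+, were followed in 3 tissues. C57BL/6 male mice of 7 to 12 weeks received β-NMN at 185 mg/kg per injection or saline (vehicle), given into the peritoneum. Hearts and lungs came from 6 mice with sepsis after cecal ligation and puncture (CLP), 3 given vehicle and 3 given β-NMN, and both organs were taken from each animal about a day after surgery. Peritoneal cells came from 12 mice, 6 per group, injected with 1 ml of 4% thioglycollate medium (TGC), and the washed-out cells were plated and exposed to E. coli for 6 h before RNA was taken. Every mouse compared here therefore carried peritonitis, and healthy, sham-operated or unstimulated samples were not analysed here. The source labels of the organs name TGC, whereas their titles, tissue labels and the study's methods give CLP. By the study's account, mice giving peritoneal cells were injected daily for 3 days, the first dose together with TGC. Hearts and lungs were taken after a single injection given right after surgery. Number and timing of doses thus differ between the peritoneal cells and the organs.

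Long-chain fatty acids are coupled to coenzyme A, passed to carnitine by CPT1 at the outer mitochondrial membrane and handed back by CPT2 inside. Each turn of β-oxidation then runs through an acyl-CoA dehydrogenase, a hydratase, a hydroxyacyl-CoA dehydrogenase and a thiolase, and it passes electrons to NAD+ and, through the electron transfer flavoprotein, to the respiratory chain. The acetyl-CoA released enters the TCA cycle at citrate synthase. The heart draws most of its ATP from fatty acids, and macrophages of the alternative (M2) type are known to use fatty acid oxidation more than those activated by bacterial products. PPARα and PGC-1α (Ppargc1a) drive many of these genes in the heart, and Pdk4, Angptl4, Acot2 and Ucp3 are classical PPAR targets.

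Total counts per library ranged from 31126823 to 112456050 in peritoneal cells, 27319513 to 68523239 in hearts and 8915366 to 28356786 in lungs, where vehicle lung 2 had the fewest. The tissues carried their own markers: 10 cardiomyocyte genes summed to 48321 to 61031 CPM (counts scaled to a common library size) in hearts and at most 434 in lungs, 10 lung epithelial genes to 66123 to 106449 in lungs and at most 84.3 in hearts, and 10 macrophage genes to 7650 to 14628 in peritoneal cells. Peritoneal groups differed in other cells: summed neutrophil markers were 116 to 299 CPM with vehicle and 18.5 to 52.4 with β-NMN, and summed fibroblast markers 105 to 1222 and 23.0 to 100.1. Of the markers tested, 5 of 7 neutrophil, 8 of 8 T and NK cell, 5 of 5 fibroblast, 3 of 4 mesothelial and 3 of 6 B cell genes were lower with β-NMN, while 1 of 7 neutrophil genes (Retnlg) was higher, 1 of 3 eosinophil genes (Ccr3) was higher, 1 of 4 endothelial genes was higher and 2 lower, and 4 of 10 macrophage genes were higher and 1 lower (edgeR, adjusted p below 0.05). Summed adipocyte markers were 4.09 to 7.44 CPM with vehicle and 10.5 to 37.7 with β-NMN, without overlap, and the 1 of 8 that could be tested, Dio2, was called higher (log2 fold change 1.89). The others had too few reads to test, and Adipoq, which defines adipocytes, was at 0 in 3 of 6 samples of each group. In bulk RNA, fewer cells of a type and less RNA per cell cannot be told apart. Vehicle mouse 2 of the CLP experiment stood apart in both organs, and values without it are given beside the organ results.

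Levels are given first, as TPM, which divide each count by the exon length of the gene before scaling to a common total and so allow genes to be compared. In TPM, 43 of the 44 genes were higher in every heart than in every peritoneal sample, and 40 were higher in every heart than in every lung. The share of all genes with such an order was not computed, so these counts have no background. The exceptions between heart and lung were Cpt1a, Etfb, Ppargc1b and Angptl4, and Cpt1a was the only one whose heart values also overlapped those of peritoneal cells. The overlaps of Etfb and Ppargc1b with lung and of Cpt1a with peritoneal cells came through vehicle mouse 2. Its lung had 64.5 TPM of Etfb against 17.97 to 35.1 in the other 5 lungs (hearts 53.6 and above), and 8.83 TPM of Ppargc1b against 0.914 to 2.12 (hearts 7.23 and above). Its heart had 71.3 TPM of Cpt1a, within the peritoneal range, against 16.05 to 23.2 in the other 5 hearts. Peritoneal cells and organs come from different experiments and separate count tables, so tissue and experiment cannot be told apart, and no test was made between them.

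**Figure D1:**
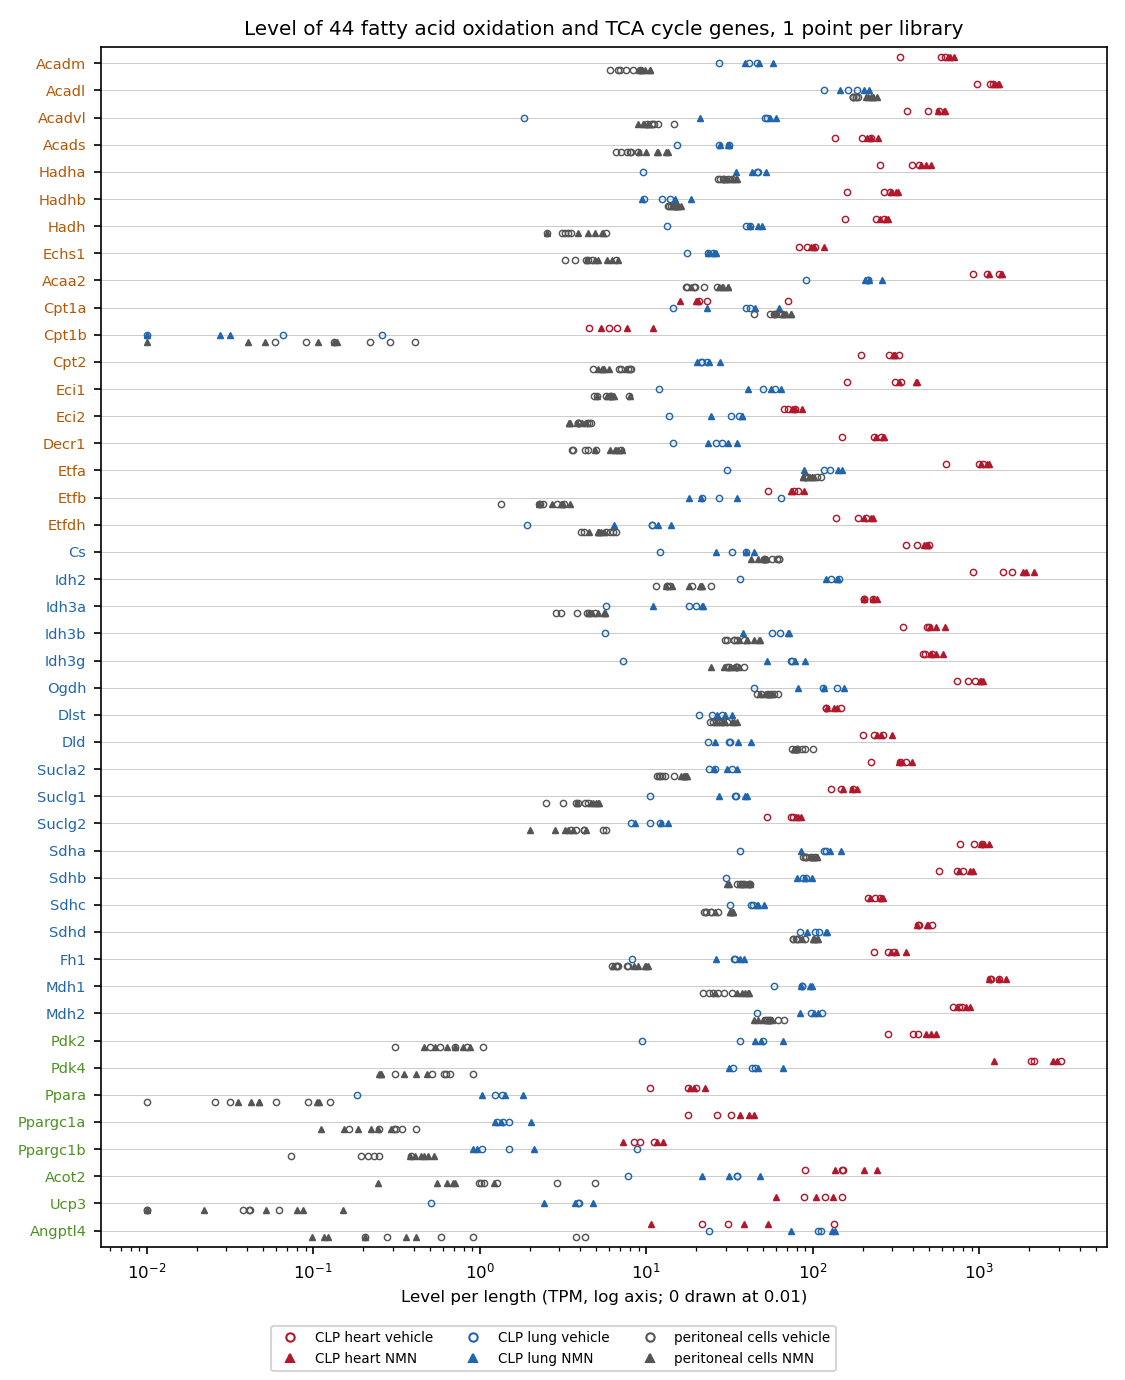
Level of each of the 44 genes in every library, in TPM on a log axis; open circles are vehicle and filled triangles β-NMN libraries, red for hearts, blue for lungs and grey for peritoneal cells, a value of 0 is drawn at 0.01, and gene names are coloured by group (orange β-oxidation, blue TCA cycle, green PPAR-regulated). Hearts lie to the right of the other tissues for nearly every gene, while Cpt1a lies between 16.05 and 71.3 TPM in hearts and between 44.5 and 74.5 TPM in peritoneal cells.

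In vehicle hearts the median level was 230.4 TPM over the β-oxidation genes, 436 TPM over the TCA cycle genes and 90.5 TPM over the PPAR-regulated genes. The highest single level belonged to Pdk4, the kinase that switches off pyruvate dehydrogenase and spares glucose when fat is burned, at 2436 ± 583 TPM (SD, n = 3). Idh2, the NADP-dependent mitochondrial isocitrate dehydrogenase, followed at 1295 ± 333 TPM and Mdh1, the cytosolic malate dehydrogenase, at 1215 ± 82.8 TPM. Pdk4 and Idh2 kept ranks 1 and 2 when the longest transcript replaced the exon length, whereas Mdh1 moved to rank 4 behind Mdh2. The spread of these 3 genes overlaps for Idh2 and Mdh1, so their order is not set by these values.

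Peritoneal cells ordered the same genes differently. Acadl, the long-chain acyl-CoA dehydrogenase, led at 179 ± 5.75 TPM in vehicle samples (SD, n = 6), followed by Etfa (97.1 ± 9.63) and Sdha (93.2 ± 5.96), whose spreads overlap. The median was 7.29 TPM for β-oxidation, 30.2 TPM for the TCA cycle and 0.452 TPM for the PPAR-regulated genes. Dld, the dihydrolipoamide dehydrogenase shared by the pyruvate and 2-oxoglutarate dehydrogenase complexes, was the only one of the 44 genes that was higher in all peritoneal samples (74.7 to 99.6 TPM) than in all lungs (23.5 to 42.7 TPM).

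The carnitine palmitoyltransferases divided by tissue. Cpt1a, the form found in most cells, stood at 57.6 ± 7.31 TPM in vehicle peritoneal cells, where Cpt1b, the muscle form, had 5 to 23 reads per library. Cpt1b had 197 to 1020 reads in hearts and 0 to 9 in lungs. Its level of 4.52 to 10.99 TPM in hearts is uncertain, because 81.4% of its exon bases are shared on the same strand with the predicted gene Gm44502, which is listed at 0 in all 24 libraries. The same holds for Etfb, with 53.0% shared with Gm45233, also listed at 0. Acadvl shares 42.9% of its exon bases with Dvl2 on the opposite strand, and the sources used here do not give the strand setting of the counting.

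Between organs of the same mice, 42 of the 44 genes were higher in heart (edgeR over the 12 CLP libraries, adjusted p below 0.05), 0 were lower in heart and 2 did not pass. Over all 18318 genes tested, 28.9% were called higher in heart and 35.9% higher in lung. Differences below are log2 ratios of heart over lung. They ran from 1.61 for Etfb (adjusted p = 0.00489; 2.41 without vehicle mouse 2) to 7.52 for Cpt1b, whose lung counts were too few to give the ratio weight. The median was 3.53 for β-oxidation, 3.70 for the TCA cycle and 4.21 for the PPAR-regulated genes, against −0.14 over all genes tested.

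All 18 TCA cycle genes were higher in heart, within a narrow band of log2 ratios from 2.59 to 4.34. Mdh1 led with 1142 to 1454 TPM in hearts and 58.2 to 98.3 in lungs (log2 ratio 4.34, SE 0.19, edgeR adjusted p = 7.27e-09). Citrate synthase (Cs, 4.33), Idh2 (4.29) and Idh3a, the catalytic subunit of the NAD-dependent isocitrate dehydrogenase (4.27), came next. Sdhd, a membrane anchor of succinate dehydrogenase, had the smallest ratio, with 421 to 519 TPM in hearts and 83.9 to 123 in lungs.

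Among β-oxidation genes, the steepest ratios after Cpt1b were those of Etfdh, which passes electrons from the electron transfer flavoprotein to ubiquinone (log2 ratio 4.99, SE 0.35), and Hadhb, the thiolase subunit of the trifunctional protein (4.87, SE 0.27). Hadhb stood at 159.7 to 327 TPM in hearts and 9.38 to 18.6 in lungs. Cpt2 was higher in heart as well (4.10, SE 0.25, edgeR adjusted p = 6.73e-08), whereas Cpt1a did not differ beyond its error (−0.03, SE 0.25, adjusted p = 0.923), with 16.05 to 71.3 TPM in hearts and 14.4 to 62.5 in lungs. The 71.3 TPM belonged to vehicle heart 2 and the 14.4 TPM to vehicle lung 2, while the other hearts had 16.05 to 23.2 and the other lungs 23.0 to 62.5. Without that mouse the log2 ratio was −0.26 (edgeR adjusted p = 0.172), and limma-voom called Cpt1a lower in heart with all libraries (−0.38, adjusted p = 0.0151).

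Pdk4 showed the widest gap of the PPAR-regulated genes, at 1225 to 3107 TPM in hearts and 31.4 to 66.2 in lungs (log2 ratio 6.19, SE 0.30, edgeR adjusted p = 1.34e-08). Ucp3, a mitochondrial carrier of muscle (5.59), Ppargc1a (4.93), Ppara itself (4.49), Pdk2 (3.93), Acot2, a mitochondrial acyl-CoA thioesterase (2.99), and Ppargc1b (2.41, adjusted p = 0.00421) were higher in heart too. The Ppargc1b ratio was 3.49 without vehicle lung 2 and 3.71 without both libraries of that mouse. Angptl4, a secreted inhibitor of lipoprotein lipase, went the other way without passing the test, at 10.6 to 133 TPM in hearts and 23.8 to 136 in lungs (log2 ratio −0.63, adjusted p = 0.227). The 133 TPM belonged to vehicle heart 2 and the 23.8 TPM to vehicle lung 2. With both libraries of that mouse left out, Angptl4 was lower in heart at a log2 ratio of −1.10 (edgeR adjusted p = 0.0137), and 42 of the 44 genes were again called higher. Of all 18673 genes tested in that fit, 6880 were called higher and 7146 lower.

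In peritoneal cells 41 of the 44 genes had enough reads to be tested, and 16 rose and 5 fell with β-NMN. Called higher were 6 of 17 β-oxidation genes, 9 of 18 TCA cycle genes and 1 of 6 PPAR-regulated genes. Called lower were 0, 2 and 3. Treatment moved much of the transcriptome here: 23.7% of all 14985 genes tested were called higher and 27.9% lower, which is the background to these counts. The median log2 fold change was 0.27 for β-oxidation, 0.22 for the TCA cycle and −0.69 for the PPAR-regulated genes, against −0.02 over all genes tested. Cpt1b, Ppara and Ucp3 had at most 23, 15 and 7 reads in any peritoneal library and were not tested.

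**Figure D2:**
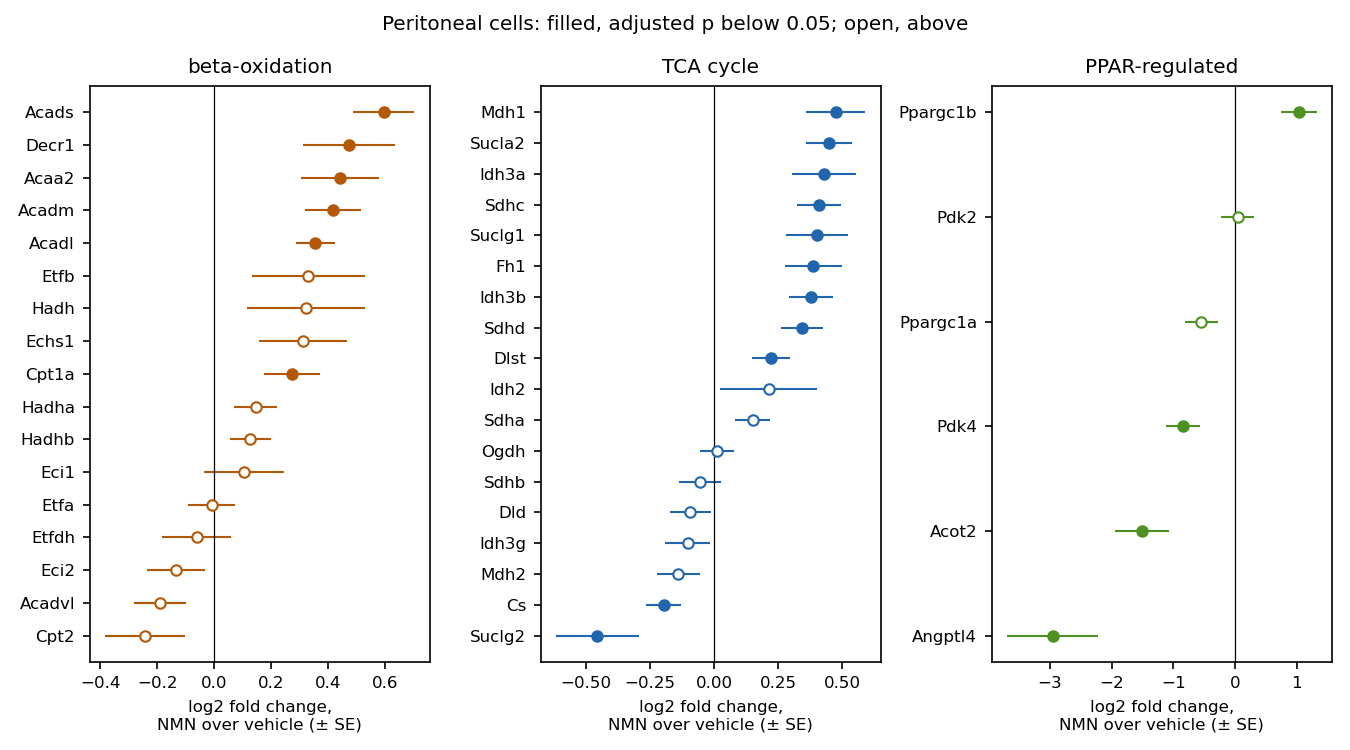
Log2 fold change, β-NMN over vehicle, in peritoneal cells (point) with its standard error (bar) for the 41 genes tested, sorted within each group; filled points passed an adjusted p of 0.05 and the horizontal axes differ between panels. The changes of the β-oxidation and TCA cycle genes lie between −0.46 and 0.60, and those of the PPAR-regulated genes between −2.95 and 1.03.

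Within β-oxidation, 3 of the 4 acyl-CoA dehydrogenases, which start each turn on chains of different length, rose. Acads, for short chains (chromosome 5, 115110299 to 115119346 on GRCm38), had 5.11 to 6.56 CPM with vehicle (median 5.19) and 7.03 to 9.35 with β-NMN (median 8.06). The groups did not overlap, and the log2 fold change was 0.60 (SE 0.11, edgeR adjusted p = 0.000353), the smallest p among the 41 genes. Over all genes tested in peritoneal cells, 12.6% had every β-NMN sample above every vehicle sample and 14% had every one below.

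Acadl, for long chains (chromosome 1, 66830839 to 66863277), had 103 to 122 CPM with vehicle (median 110.3) and 139 to 147 with β-NMN (median 143). These groups did not overlap either, and the log2 fold change was 0.36 (SE 0.07, edgeR adjusted p = 0.000618). Acadm, for medium chains, had 8.13 to 11.5 CPM (median 8.67) and 11.4 to 12.9 (median 12.2), so that 1 vehicle sample reached into the β-NMN range (log2 fold change 0.42, adjusted p = 0.00264). Acadvl, for very long chains, was the exception, with a log2 fold change of −0.19 (SE 0.09, adjusted p = 0.0937).

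The later steps were uneven. Acaa2, the thiolase that closes the turn, rose from a median of 9.45 CPM (7.51 to 13.0) to 13.7 (9.63 to 14.7), with a log2 fold change of 0.44 (edgeR adjusted p = 0.0139). Decr1, which prepares polyunsaturated chains, rose from a median of 5.08 (4.47 to 8.80) to 8.09 (5.63 to 8.73), by 0.47 (adjusted p = 0.0241), a call lost without any 1 of 3 samples. In both genes the groups overlapped. The trifunctional protein that carries the middle steps for long chains did not pass the test in either subunit, at 0.15 for Hadha (adjusted p = 0.119) and 0.13 for Hadhb (adjusted p = 0.147).

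At the mitochondrial entry, Cpt1a rose from a median of 139 CPM (109.9 to 158) to 159 (148 to 194), by 0.27 on the log2 scale (SE 0.10, edgeR adjusted p = 0.0311). The call was lost without vehicle sample 2 (adjusted p = 0.0581) and with limma-voom (0.18, adjusted p = 0.0577). Cpt2, its partner at the inner membrane, had 3.96 to 6.29 CPM with vehicle (median 5.24) and 3.89 to 6.14 with β-NMN (median 4.16), a log2 fold change of −0.24 that was not called (edgeR adjusted p = 0.164). Cpt2 was called lower by limma-voom (−0.34, adjusted p = 0.0123) and, with edgeR, without β-NMN sample 6 (−0.32, adjusted p = 0.0369). The electron transfer genes Etfa, Etfb and Etfdh were not called, at −0.01, 0.33 and −0.06.

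**Figure D3:**
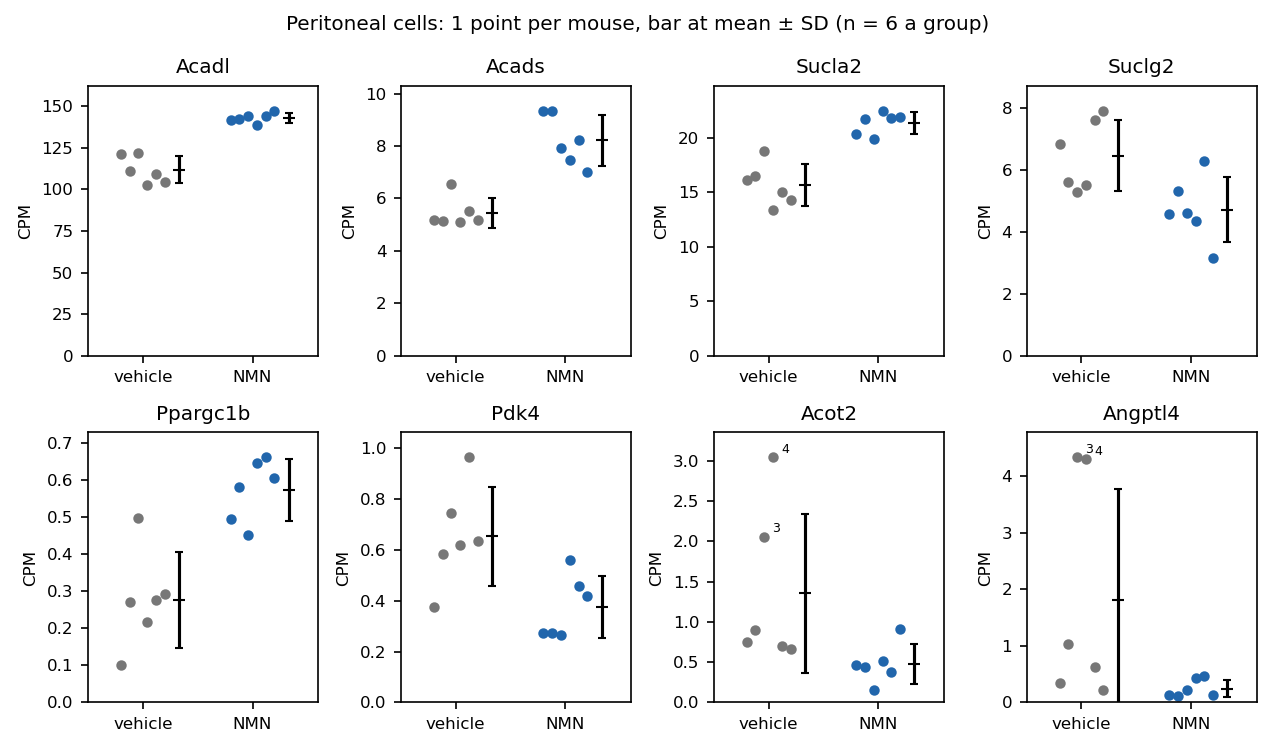
CPM of 8 genes in each peritoneal sample, vehicle in grey and β-NMN in blue, with the mean ± SD beside each group (n = 6; axes start at 0, where the lower bar of Angptl4 is cut off). Acadl, Acads and Sucla2 do not overlap between groups, while the highest values of Angptl4 and Acot2 are those of vehicle samples 3 and 4, which are numbered.

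Among the TCA cycle genes, calls covered some subunits of an enzyme and not others, and differences between subunits were not tested. At the entry of the cycle Cs fell, with 95.1 to 115 CPM with vehicle (median 102) and 84.3 to 95.4 with β-NMN (median 89.5), a log2 fold change of −0.20 (SE 0.07, edgeR adjusted p = 0.0271). That call was lost without any 1 of 8 of the 12 samples. Of the NAD-dependent isocitrate dehydrogenase, the subunits Idh3a and Idh3b rose by 0.43 and 0.38 (adjusted p = 0.00992 and 0.00200), whereas Idh3g was at −0.10 (adjusted p = 0.352). In the 2-oxoglutarate dehydrogenase complex, Dlst rose by 0.22 (adjusted p = 0.0225; lost without any 1 of 3 samples), while Ogdh (0.01) and Dld (−0.09) were not called.

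Succinyl-CoA ligase joins a shared α subunit (Suclg1) to a β subunit that sets the nucleotide, ADP for Sucla2 and GDP for Suclg2. Sucla2 (chromosome 14, 73525319 to 73596142) had 13.4 to 18.8 CPM with vehicle (median 15.6) and 19.9 to 22.5 with β-NMN (median 21.8). Suclg2 (chromosome 6, 95473009 to 95718800) had 5.29 to 7.91 CPM (median 6.21) and 3.14 to 6.27 (median 4.60). Sucla2 was higher in all β-NMN samples than in all vehicle samples, whereas the Suclg2 groups overlapped.

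Sucla2 rose by 0.45 on the log2 scale (SE 0.09, edgeR adjusted p = 0.000788), and Suclg1 by 0.40 (adjusted p = 0.0123), while Suclg2 changed by −0.46 (SE 0.16, adjusted p = 0.0273). The call on Suclg2 was lost without any 1 of 7 samples. The log2 ratio of Sucla2 to Suclg2 within each sample, formed after these values were seen, was 1.29 ± 0.36 with vehicle and 2.21 ± 0.34 with β-NMN (SD, n = 6 each), given as a description since the pair was chosen for its opposite changes. In hearts the same ratio was 1.96 ± 0.08 and 1.90 ± 0.11, and in lungs 1.22 ± 0.51 and 1.20 ± 0.13 (SD, n = 3 each).

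Succinate dehydrogenase links the cycle to the respiratory chain. Its membrane anchors rose, Sdhc from a median of 24.5 CPM (20.9 to 28.3) to 32.7 (28.6 to 34.4) and Sdhd from 30.1 (27.8 to 35.8) to 39.3 (36.3 to 41.7), without overlap. The log2 fold changes were 0.41 (SE 0.09, edgeR adjusted p = 0.00121) and 0.34 (SE 0.08, adjusted p = 0.00297). The catalytic subunit Sdha was at 0.15 (adjusted p = 0.0847) and the iron-sulphur subunit Sdhb at −0.05 (adjusted p = 0.607).

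Further round the cycle, Fh1, the fumarase, rose by 0.39 (edgeR adjusted p = 0.00911). Mdh1 rose from a median of 21.0 CPM (17.9 to 27.1) to 30.1 (22.6 to 32.9), by 0.48 (adjusted p = 0.00308), whereas mitochondrial Mdh2, which completes the cycle, was at −0.14 (adjusted p = 0.186). Idh2 was at 0.21 (adjusted p = 0.367).

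The PPAR-regulated genes were near the detection limit in peritoneal cells, all 6 tested ones below 5 CPM, and 3 of the 4 called genes fell. Angptl4 (chromosome 17, 33773750 to 33781830) had 0.215 to 4.34 CPM with vehicle (median 0.828) and 0.110 to 0.459 with β-NMN (median 0.176), a log2 fold change of −2.95 (SE 0.74, edgeR adjusted p = 0.00383). Acot2 (chromosome 12, 83987861 to 83993873) had 0.666 to 3.05 CPM (median 0.823) and 0.159 to 0.907 (median 0.450), a log2 fold change of −1.51 (SE 0.44, adjusted p = 0.0106). The groups overlapped for both.

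Vehicle samples 3 and 4 held the highest values of both genes, 4.34 and 4.30 CPM for Angptl4 and 2.06 and 3.05 CPM for Acot2, and the other 4 vehicle samples were at or below 1.03 and 0.894. The same samples had the highest summed level of the 6 fibroblast markers, 1222 and 533 CPM, against 105 to 303 in the other vehicle samples. Leaving both out, an alternative added after seeing the data, brought Angptl4 to −1.18 (edgeR adjusted p = 0.0756) and Acot2 to −0.60 (adjusted p = 0.168), neither then called. The part of fibroblast RNA in these changes was not tested.

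**Figure D4:**
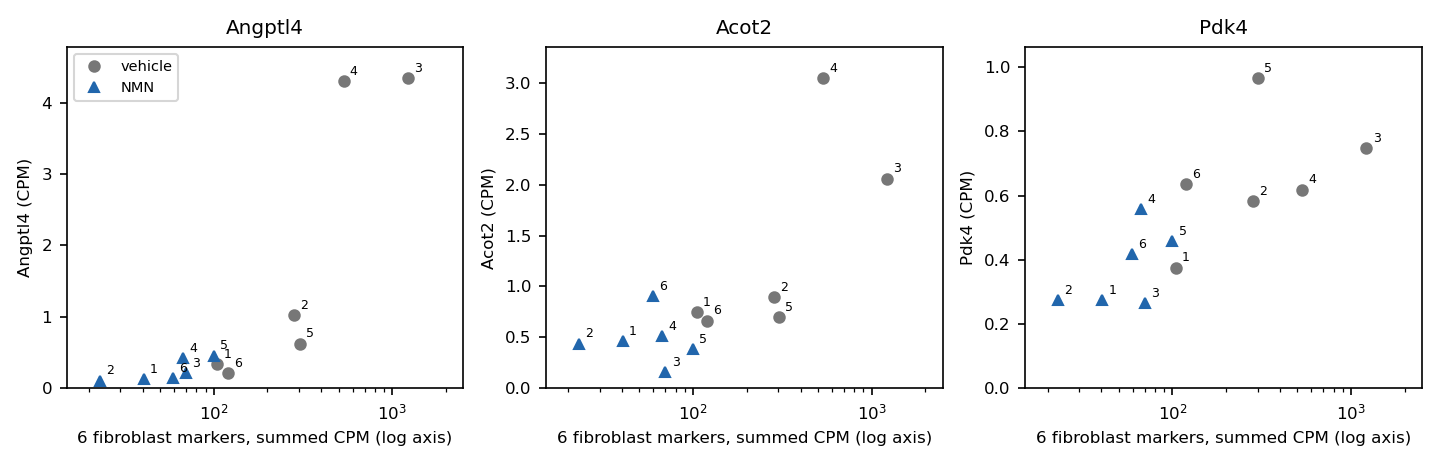
CPM of Angptl4, Acot2 and Pdk4 in each peritoneal sample against the summed CPM of 6 fibroblast markers (log axis), with the mouse number beside each point, circles for vehicle and triangles for β-NMN. Vehicle samples 3 and 4 are highest on both axes for Angptl4 and Acot2, whereas Pdk4 is highest in vehicle sample 5.

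Pdk4 (chromosome 6, 5483351 to 5496309) had 0.375 to 0.966 CPM with vehicle (median 0.627) and 0.266 to 0.559 with β-NMN (median 0.347). It fell by 0.84 on the log2 scale (SE 0.28, edgeR adjusted p = 0.0202), and without vehicle samples 3 and 4 it was at −0.78 (adjusted p = 0.0626). The call was also lost without any 1 of 4 single samples. Without vehicle samples 3 and 4, 20 of the 41 genes were called higher and 1, Suclg2, lower. Of all 15442 genes tested in that fit, 3950 were called higher and 3594 lower. Ppargc1b, a coactivator close to PGC-1α, rose from a median of 0.275 CPM (0.102 to 0.498) to 0.593 (0.452 to 0.663), by 1.03 (SE 0.29, adjusted p = 0.00821). Ppargc1a was at −0.55 (adjusted p = 0.103) and Pdk2 at 0.04 (adjusted p = 0.904). The thioesterase gene Acot1, a close relative of Acot2 on the list of further fatty acid genes, moved the opposite way, by 0.73 (adjusted p = 0.0411), and reads of the pair may have been split in counting.

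PPARs and the related estrogen-related receptors bind sites built from the letters AGGTCA, so the stretch before the start of each gene was searched for them on both strands in the RefSeq promoter windows (GRCm38.p6, 250 bases before to 50 after the start). Windows were matched for 37 of the 44 genes, and 11 of these (29.7%) held the letters at least once, against 18.1% of all 27025 genes and 16.3% of all windows. Of the genes called in peritoneal cells, 5 of 11 with a window and a rise held it, 0 of 4 with a fall, and 5 of 20 that were not called. A pair of AGGTCA with 1 base between, the usual PPAR arrangement, was in none of the members' windows and in 0.0396% of all windows. The longer TCAAGGTCA, typical of estrogen-related receptors, was in 1 member window, that of Sdhd after the start, and in 0.423% of all windows. Such a match is letters only and shows no binding. Shown are the 250 bases before the start of 4 genes that rose and hold the letters, then Suclg2, which fell and does not. Each runs 5′ to 3′ on the strand of the gene, with AGGTCA, or TGACCT where it lies on the other strand, in capitals.
Acadm (chr3:153944644-153944893, minus strand): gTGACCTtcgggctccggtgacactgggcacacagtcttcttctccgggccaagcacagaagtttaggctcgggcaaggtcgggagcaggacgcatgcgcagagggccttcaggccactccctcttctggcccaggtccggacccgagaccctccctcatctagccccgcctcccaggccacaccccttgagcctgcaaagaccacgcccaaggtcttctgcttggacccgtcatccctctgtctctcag
Cpt1a (chr19:3323051-3323300, plus strand): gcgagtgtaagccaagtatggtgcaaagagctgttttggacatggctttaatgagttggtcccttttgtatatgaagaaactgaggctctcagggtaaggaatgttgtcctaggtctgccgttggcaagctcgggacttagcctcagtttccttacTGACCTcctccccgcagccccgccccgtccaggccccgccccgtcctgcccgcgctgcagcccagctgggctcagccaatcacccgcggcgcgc
Sucla2 (chr14:73552536-73552785, plus strand): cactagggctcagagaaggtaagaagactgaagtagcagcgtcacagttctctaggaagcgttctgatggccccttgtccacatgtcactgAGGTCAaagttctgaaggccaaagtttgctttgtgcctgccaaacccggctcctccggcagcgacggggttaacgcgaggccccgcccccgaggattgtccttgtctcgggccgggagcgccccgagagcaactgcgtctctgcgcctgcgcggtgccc
Fh1 (chr1:175625636-175625885, minus strand): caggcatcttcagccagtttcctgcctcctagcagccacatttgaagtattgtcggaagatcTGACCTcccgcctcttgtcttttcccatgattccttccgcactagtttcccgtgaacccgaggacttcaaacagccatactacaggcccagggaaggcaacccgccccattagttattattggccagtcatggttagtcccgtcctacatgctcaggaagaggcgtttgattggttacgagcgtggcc
Suclg2 (chr6:95718847-95719096, minus strand): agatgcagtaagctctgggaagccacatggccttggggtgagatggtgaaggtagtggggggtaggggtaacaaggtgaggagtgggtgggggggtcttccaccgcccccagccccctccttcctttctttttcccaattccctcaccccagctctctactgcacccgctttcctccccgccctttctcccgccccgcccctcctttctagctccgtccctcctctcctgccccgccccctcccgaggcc
The windows of Sucla2 and Cpt1a lie inside the spans that GENCODE M21 gives these genes, since RefSeq places the starts further downstream.

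Other genes of fatty acid use, the TCA cycle and PPAR control, from lists that exclude the 44, were read in the same peritoneal fit. Of 51 further genes of fatty acid use, 44 were tested, and 24 rose and 6 fell. The smallest p belonged to Cd36, the fatty acid translocase, at 447 to 719 CPM with vehicle and 1061 to 1338 with β-NMN (log2 fold change 1.12, edgeR adjusted p = 1.28e-06). Lpl, the lipoprotein lipase that Angptl4 inhibits (1.40, adjusted p = 5.31e-06), and Fabp4, a fatty acid binding protein (1.49, adjusted p = 6.20e-06), rose as well. Adipocytes also express Cd36, Lpl, Fabp4 and Pparg, and the summed adipocyte markers given above were higher with β-NMN; their part in these changes was not tested. Acyl-CoA synthetases were among the genes that fell, with Acsl1 at −0.62 and Acsl4 at −1.12, as did the carnitine carrier Slc25a20 at −0.56, all 3 named after their values were seen.

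Of 30 further TCA cycle and pyruvate genes, 29 were tested, and 12 rose and 3 fell. Sdhaf4, an assembly factor of succinate dehydrogenase, went from 0.512 to 0.739 CPM with vehicle to 1.70 to 2.82 with β-NMN (log2 fold change 1.76, edgeR adjusted p = 1.71e-06). The assembly factor Sdhaf1 went the other way, from 0.505 to 0.969 CPM with vehicle to 0.127 to 0.313 with β-NMN. Sdhaf2 and Sdhaf3 overlapped between groups, and all of these were named after their values were seen, apart from Sdhaf4. The pyruvate carrier subunit Mpc1 rose by 0.90 (adjusted p = 2.87e-06) and Pdp1, the phosphatase that reverses the action of the PDK kinases, by 0.95 (adjusted p = 1.50e-05). Of 21 further genes of PPAR and PGC-1 control, 17 were tested, and 3 rose and 6 fell. Pparg rose by 1.59 (4.80 to 7.39 CPM with vehicle, 16.5 to 21.3 with β-NMN, adjusted p = 1.23e-07), whereas Ppard fell by 1.12 and Esrra, the estrogen-related receptor α, by 0.89 on the log2 scale (adjusted p = 1.56e-06 and 9.88e-06).

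In CLP hearts 41 of the 44 genes had a higher fitted level with β-NMN, yet 0 were called at an adjusted p below 0.05 by edgeR, by DESeq2 or by limma-voom, and 0 had an unadjusted p below 0.05. Over all 16245 genes tested, edgeR called 0%, with 1837 at an unadjusted p below 0.05, while DESeq2 called 283 and limma-voom 3. The median log2 fold change was 0.35 for β-oxidation, 0.29 for the TCA cycle and 0.31 for the PPAR-regulated genes, against −0.01 over all genes tested. All β-NMN hearts were above all vehicle hearts for 12 of the 44 genes, and below them for Cpt1a alone, whereas 11.6% and 11.5% of all genes tested had groups apart in these directions.

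Most of these differences rested on vehicle heart 2. It was the lowest of the 6 hearts for 40 of the 44 genes, while it was the lowest for 36.2% of all genes tested. In TPM it was the lowest for 34 of the 44 and for 14.0% of all genes, and Pdk4 and Ucp3 joined Cpt1a and Angptl4 as genes in which it was the highest. Without it, 36 of the 44 genes were higher with β-NMN and the median log2 fold change over the 44 was 0.06, against 0.32 with it. In that heart, transcripts of the mitochondrial genome made up 12.9% of reads, against 18.2% to 22.7% in the other 5. Its summed fibroblast markers were 2678 CPM against 835 to 1286, its adipocyte markers 143 against 37.2 to 59.7, its mesothelial markers 123 against 5.82 to 13.2, its B cell markers 74.0 against 1.16 to 4.68, and its cardiomyocyte markers 48321 against 53383 to 61031. Marker sums also differed between the groups of hearts without overlap: cardiomyocyte markers were at 48321 to 54171 CPM with vehicle and 54896 to 61031 with β-NMN (median 0.28 on the log2 scale over the 10 genes), skeletal muscle markers at 611 to 1146 and 1160 to 1680, and neutrophil markers at 19.1 to 36.0 and 12.3 to 15.0. The part of all these differences in the gene levels was not tested.

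**Figure D5:**
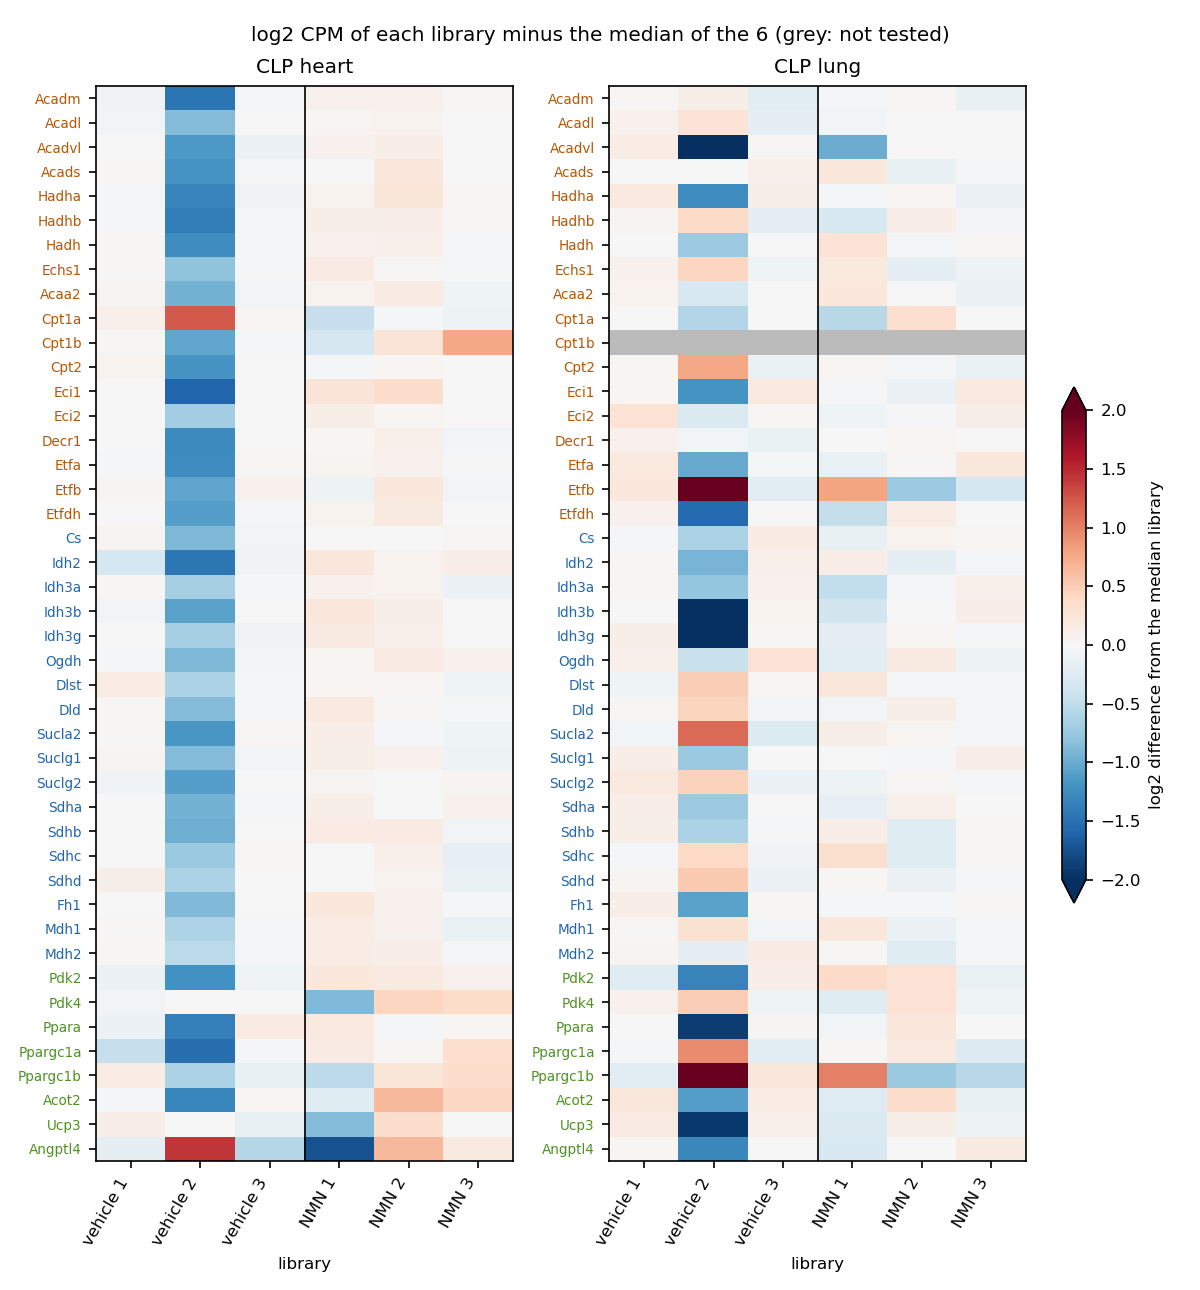
Log2 CPM of each gene in each heart (left) and lung (right) minus the median of the 6 libraries of that organ, red above and blue below the median, with gene names coloured by group and grey where a gene was not tested. Vehicle heart 2 is blue in nearly all rows apart from Cpt1a and Angptl4, and vehicle lung 2 departs in both directions in CPM, whereas in TPM it was the highest only for Etfb and Ppargc1b.

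The largest upward change among the 44 genes in hearts was fitted for Ppargc1a, at 72.6, 34.8 and 96.6 CPM in vehicle hearts 1 to 3 and 112, 102 and 125 in β-NMN hearts 1 to 3. The groups did not overlap, with vehicle heart 2 far below the rest, and the log2 fold change was 0.74 (SE 0.34, edgeR adjusted p = 0.441), or 0.41 without that heart. Idh2 had 1504, 704 and 1832 CPM with vehicle and 2241, 2013 and 2114 with β-NMN. Here too the groups were apart, with a log2 fold change of 0.66 (SE 0.35, adjusted p = 0.458), or 0.34 without vehicle heart 2. Pdk2, a second pyruvate dehydrogenase kinase, had 564, 264 and 574 CPM and then 706, 689 and 646 (log2 fold change 0.54, adjusted p = 0.463; 0.25 without vehicle heart 2).

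Among the other TCA cycle genes with the smallest p, Idh3g (0.31), Ogdh (0.38) and Idh3b (0.41) had adjusted p between 0.509 and 0.531. For β-oxidation, Acadvl stood at 0.42, Eci1, an isomerase for unsaturated chains, at 0.57 and Cpt1b at 0.58, with adjusted p between 0.497 and 0.525. Cpt2 was at 0.27 (adjusted p = 0.679) and Ppara at 0.37 (adjusted p = 0.611). Acot2 had a log2 fold change of 0.64 (adjusted p = 0.480) and Ppargc1b of 0.25 (adjusted p = 0.663). Without vehicle heart 2 these were 0.13 for Idh3g, 0.14 for Ogdh, 0.13 for Idh3b, 0.13 for Acadvl, 0.20 for Eci1, 0.31 for Cpt1b, −0.045 for Cpt2, 0.030 for Ppara, 0.32 for Acot2 and 0.063 for Ppargc1b.

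Cpt1a ran against its group in hearts. It had 73.7, 161 and 71.4 CPM in vehicle hearts and 50.0, 66.9 and 64.6 in β-NMN hearts, each β-NMN value below each vehicle value, with vehicle heart 2 the highest. The log2 fold change was −0.75 (SE 0.33, edgeR adjusted p = 0.435), and −0.27 without that heart (adjusted p = 0.561).

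A few PPAR targets varied between mice of the same group. Pdk4 had 3128, 3219 and 3267 CPM in vehicle hearts and 1756, 4372 and 4165 in β-NMN hearts (log2 fold change 0.10, edgeR adjusted p = 0.897). Angptl4 had 45.5, 139 and 34.7 CPM and then 15.4, 80.8 and 58.7 (−0.50, adjusted p = 0.727; 0.36 without vehicle heart 2). Ucp3 had 153, 139 and 126 CPM and then 76.9, 178 and 140.4 (−0.08, adjusted p = 0.892). β-NMN heart 1 was the lowest of the 6 hearts for these 3 genes and for Cpt1a, and for no other member, while it was the lowest for 18.02% of all genes tested.

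In CLP lungs 43 genes were tested (Cpt1b was not), and 0 were called by edgeR, DESeq2 or limma-voom, with 0 at an unadjusted p below 0.05 in edgeR. Of all 17008 genes tested edgeR called 0%, with 301 at an unadjusted p below 0.05, DESeq2 9 and limma-voom 7. With β-NMN 23 were higher and 20 lower, and the median log2 fold change was 0.04, against 0.00 over all genes tested. No gene of the 44 had groups that did not overlap, whereas 4.47% of all genes tested had all β-NMN lungs higher and 3.75% all lower. Without vehicle lung 2 the split was 17 higher and 26 lower, and the median −0.04. With limma-voom, which weights libraries by quality, it was 10 higher and 33 lower.

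In CPM, vehicle lung 2 was the lowest of the 6 lungs for 24 of the 43 genes and the highest for 16, and over all genes tested it was the lowest for 43.8% and the highest for 36.4%. These counts turned with the scaling. In TPM it was the lowest for 36 of the 43 genes and the highest for 2, Etfb and Ppargc1b, while over all genes it was the lowest for 68.5% and its median log2 ratio to the other lungs was −1.003 (−0.067 in CPM). The mean TPM was higher with β-NMN for 41 of the 43 genes, against 23 in the CPM fit, so the split in lungs turned with the scaling too. Its summed macrophage markers were 1320 CPM, against 4501 to 5848 in the other lungs, and its adipocyte markers 288, against 32.4 to 106. The macrophage sums did not overlap between the groups of lungs, at 1320 to 4874 CPM with vehicle and 5719.6 to 5848 with β-NMN. Gene by gene the 10 markers did not rise as a set, with a median log2 fold change of −0.098 and 0 called. Vehicle lung 2 had also the fewest reads, and the part of these differences in the gene levels was not tested.

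Etfb, the β subunit of the electron transfer flavoprotein, had the smallest p of the β-oxidation genes in lungs, at 14.4, 61.5 and 10.8 CPM in vehicle lungs 1 to 3 and 21.4, 7.54 and 9.76 in β-NMN lungs. Only vehicle lung 2 exceeded 21.4, and the log2 fold change of −1.15 (SE 0.74, edgeR adjusted p = 0.969) became 0.02 without it. Ppargc1b, with the smallest p of all 43, had 1.89, 28.9 and 2.57 CPM and then 4.45, 1.31 and 1.50 (log2 fold change −2.18, SE 1.13, adjusted p = 0.969; 0.09 without vehicle lung 2). Sucla2 was high in the same library too, at 107 CPM against 40.5 to 53.2 in the other 5, though not in TPM, where its 32.8 lay below the 34.9 of β-NMN lung 2. The log2 fold change of Sucla2 was negative with all libraries and 0.20 without vehicle lung 2.

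In the opposite direction, Acadvl had 4.05 CPM in vehicle lung 2 against 29.6 to 64.7 in the other lungs, Idh3b 15.7 against 68.7 to 96.8 and Idh3g 16.04 against 75.1 to 91.7. The remaining genes chosen by p were all at an adjusted p of 0.969: Hadh (0.30), Cpt2 (−0.32) and Echs1 (−0.18) for β-oxidation, Suclg2 (−0.23), Sdhd (−0.22) and Suclg1 (0.18) for the TCA cycle, and Pdk2 (0.55). Cpt1a (0.13), Ppara (0.38), Ppargc1a (−0.31), Pdk4 (−0.18), Acot2 (0.13), Ucp3 (0.18) and Angptl4 (0.26) had adjusted p of 0.969 to 0.972. Without vehicle lung 2 the values of the first set were 0.10 for Hadh, 0.00056 for Cpt2, −0.027 for Echs1, −0.082 for Suclg2, −0.0094 for Sdhd, −0.044 for Suclg1 and 0.23 for Pdk2. Those of the second set were then −0.046 for Cpt1a, 0.028 for Ppara, 0.11 for Ppargc1a, −0.00053 for Pdk4, −0.18 for Acot2, −0.21 for Ucp3 and −0.059 for Angptl4. Cpt2, Suclg1, Cpt1a, Ppargc1a, Acot2, Ucp3 and Angptl4 thus changed sign without that library. With 3 mice per group, the smallest p that exact permutation allows is 0.1 in either organ.

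The change with β-NMN was compared between heart and lung with an interaction term. It was positive, that is more upward in heart, for 40 of the 44 genes and for 47.2% of all 18318 genes tested. The median log2 difference was 0.26 over the 44 and −0.04 over all genes tested. By edgeR 0 of the 44 and 0% of all genes were called. At an unadjusted p below 0.05 there was 1 of the 44, Cpt1b (log2 difference 3.15, SE 1.12, adjusted p = 0.960), which rests on 0 to 9 reads in lungs, and DESeq2 and limma-voom called 0 of the 44. Over all genes 797 were at that level. Without both libraries of vehicle mouse 2, a choice made after seeing the data, 36 of the 44 were positive, and without its heart alone 26. Over all genes tested, 9012 of 18673 and 9603 of 18994 were positive in these 2 fits.

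From the further lists, 0 genes were called in either organ by edgeR, with 4, 1 and 3 at an unadjusted p below 0.05 in hearts and 0 in lungs. In hearts the smallest p for fatty acid use were those of Bdh1, a ketone body dehydrogenase (log2 fold change 0.77), and Acsl6 (−0.67), for pyruvate use those of Pdk3 (−1.83) and Pdp1 (0.35), and for PPAR control those of Ucp2 (−1.56) and Rxrb (0.32), with adjusted p of 0.435 or 0.436. Their groups did not overlap. Without vehicle heart 2 the log2 fold changes were 0.60 for Bdh1, −0.61 for Acsl6, −1.08 for Pdk3, 0.20 for Pdp1, −0.81 for Ucp2 and 0.23 for Rxrb. In lungs the smallest p were those of Fabp4 (−1.78) and Plin4 (−0.71), of Sdhaf1 (−1.83) and Idh1 (−0.51), and of Pprc1 (−0.39) and Ncoa1 (−0.94), all with an adjusted p of 0.969 and overlapping groups. Without vehicle lung 2 they stood at −0.34 for Fabp4, −0.96 for Plin4, 0.36 for Sdhaf1, −0.069 for Idh1, −0.48 for Pprc1 and 0.081 for Ncoa1. Between organs, 35 of 50 further genes of fatty acid use tested were higher in heart and 6 in lung, 20 and 5 of 30 TCA cycle and pyruvate genes, and 14 and 1 of 21 genes of PPAR control.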

How the data were processed

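RNA libraries were sequenced. Per the labels, the authors aligned reads to mm10 with STAR 2.7.3a and counted them with featureCounts 2.0.0. The deposited tables hold raw counts per gene symbol. Annotation and strand setting are not given in the sources used here. Separate fits were made per tissue in edgeR 4.0.16 (R 4.3.3) with filterByExpr, TMM scaling and the legacy quasi-likelihood test, with Benjamini-Hochberg adjustment over all genes tested and 0.05 as threshold. The organ and interaction tests used all 12 CLP libraries. TPM used exon-union lengths of GENCODE M21 (53994 of 54658 symbols). Tests were checked on simulated counts. DESeq2 1.42.0, limma 3.58.1 (voom with quality weights), other filters and scalings, a replicate block and leaving out each library were alternatives. The members and lists were chosen with earlier results of these data known. Genes named were, per group and tissue, the 4 smallest p, up to 6 called, the largest change against the group, all PPAR-regulated genes and the CPT genes, plus the 3 (peritoneal cells) or 2 (organs) smallest p of each further list; other genes were named after their values were seen. The β-NMN heart of the mouse with β-NMN lung 2 was taken as replicate 2, although its label says 3. Hearts and lungs pair by mouse, since they come from the same animals (correlation of their deviations from the group means 0.0426 to 0.148). P-values measure the spread between single samples per mouse.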

Additional observations from a re-analysis of the deposited data

Results flagged for a closer look

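In peritoneal cells, each group of 6 was checked for a sample far from the other 5 in each of the 41 genes tested, and 13 of 82 groups held one. The rule marks about 1 in 20 groups by chance, but the genes share the same 12 libraries and are not independent draws. Over all genes tested, 9.82% of groups held such a sample, at 6.95% of vehicle and 12.7% of β-NMN groups. Over all 14985 genes, vehicle sample 3 was the high one for 321 (2.14%) and β-NMN sample 6 for 1136. Vehicle sample 3 was the high one for Acadm (11.5 CPM against 8.13 to 9.18), Acads (6.56 against 5.11 to 5.52), Hadh (9.27 against 3.76 to 5.39), Echs1 (17.5 against 8.01 to 11.5), Decr1 (8.80 against 4.47 to 5.42), Idh3b (42.6 against 33.5 to 35.4), Idh3g (33.8 against 26.6 to 28.5) and Mdh2 (77.5 against 56.3 to 63.5). This is the library with the highest summed fibroblast markers, 1222 CPM, and the highest summed macrophage markers, 14628 CPM against 7650 to 9873 in the other 5 vehicle samples. Their part in these values was not tested. Without vehicle sample 3, 21 of the 41 genes were called higher and 5 lower. Of all 15397 genes tested in that fit, 3999 were called higher and 3966 lower. Vehicle sample 4 was high for Acadvl (11.05 CPM against 8.80 to 9.53). β-NMN sample 6 was low for Acaa2 (9.63 against 13.2 to 14.7) and Mdh1 (22.6 against 29.6 to 32.9) and high for Cpt2 (6.14 against 3.89 to 4.29), which was called lower without it (log2 fold change −0.32, edgeR adjusted p = 0.0369). β-NMN sample 3 was low for Decr1 (5.63 against 7.79 to 8.73).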

How the results depend on the processing

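In peritoneal cells the 16 rises stayed between 12 and 20 and the 5 falls between 1 and 6 under the other settings. The falls numbered 2 with no filter on low counts, and 1 without the vehicle pair highest in fibroblast markers, a setting added after seeing the data, as was depth class as a term (16 and 5). Leaving out 1 sample gave 17 to 26 calls, 14 to 21 of them rises and 2 to 5 falls. Hearts, lungs and the interaction stayed at 0 calls under every setting run. Between organs 42 genes were called under all settings but limma-voom (44, with Cpt1a at −0.38 and Angptl4 at −1.42 lower in heart) and without vehicle mouse 2 (43). Same-numbered samples share only a number within a tissue (correlations −0.17 to 0.13 in peritoneal cells, 0.073 to 0.24 in hearts, where all were positive, and −0.52 to 0.30 in lungs). With the replicate block, peritoneal calls were 15 and 4 (Decr1 at an adjusted p of 0.053 and Cs at 0.071 were lost), hearts and lungs 0, and Pdk4 in hearts turned to −0.0084. With the mouse as replicate block, 42 organ calls and 0 interaction calls stood, and the interaction of Pdk2 turned to −0.042 and of Ppara to −0.084.

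Signs turned only for uncalled values. Among the genes chosen by the naming rule given above, limma-voom turned Cpt2 (−0.012), Pdk4 (−0.16) and Ppargc1b (−0.017) in hearts. In lungs it turned Cpt1a (−0.026), Sucla2 (0.11), Suclg1 (−0.0011), Acot2 (−0.24) and Ucp3 (−0.21), and in the interaction Pdk4 (−0.044). Without vehicle mouse 2 the interaction of Cpt2 became −0.019, of Ucp3 0.15 and of Angptl4 0.46. Over all members, leaving out any 1 library turned the sign of 5 of 41 in peritoneal cells, 9 of 44 in hearts (7 without vehicle heart 2), 34 of 43 in lungs (30 without vehicle lung 2), 1 of 44 between organs and 18 of 44 in the interaction (16 without vehicle heart 2). The 5 in peritoneal cells were Etfa, Etfdh, Ogdh, Sdhb and Pdk2, with Pdk2 at −0.043 to 0.22. Those chosen by the naming rule in hearts were Cpt2 (−0.045 to 0.47), Pdk4 (−0.12 to 0.42), Ucp3 (−0.36 to 0.20) and Angptl4 (−0.98 to 0.36). Between organs it was Cpt1a (−0.16 to 0.10). Those chosen by the rule in lungs were Cpt1a (−0.10 to 0.33), Cpt2 (−0.46 to 0.00056), Etfb (−1.72 to 0.020), Sucla2 (−0.58 to 0.20), Suclg1 (−0.044 to 0.36), Ppargc1a (−0.50 to 0.11), Ppargc1b (−2.94 to 0.092), Acot2 (−0.18 to 0.35), Ucp3 (−0.21 to 0.46) and Angptl4 (−0.059 to 0.47). Acadvl, Idh3b and Idh3g, given above for their low values in vehicle lung 2, turned without that library too. In the interaction, those chosen by the rule were Pdk2 (−0.35 to 0.34), Ppara (−0.26 to 0.37), Ucp3 (−0.50 to 0.16) and Angptl4 (−1.23 to 0.13). With the longest transcript as length, median levels in vehicle samples moved to 8.87 TPM (β-oxidation) and 40.1 TPM (TCA cycle) in peritoneal cells and to 57.2 TPM (TCA cycle) in lungs. Beyond the lengths, the cause of these shifts was not tested. Low counts limit Cpt1b outside the heart and the PPAR-regulated genes in peritoneal cells.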
